A study of Homo sapiens and Mus musculus with 19 samples.

Results

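The long low-methylation blocks of HepG2 are stretches of the human autosomes in which fewer than 50% of the tags at CCGG sites were methylated in both bulk libraries of that line. They were chosen on hg38 by cutting each autosome into bins of 100 kb from position 1. A bin was kept when each of the 4 libraries of 1000 cells held at least 20 tags in it, and a block is a run of at least 10 adjacent kept bins under the threshold in both HepG2 libraries. The rule gave 369 blocks of 6055 bins, or 605.5 Mb of the 2677.2 Mb kept (22.6%). The HepG2 1000-cell 5mC values therefore chose the blocks, and they are given below as a description. Test results on 5mC or unmethylated tags of these libraries inside blocks are descriptions too. The single cells of both lines had no part in the choice. The H1ES 1000-cell libraries entered it only through the minimum of 20 tags, and their 5mC values were not used.

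The assay tags CCGG sites by the state of the inner CpG as unmethylated, 5-methylated (5mC) or 5-hydroxymethylated (5hmC), and the 5mC level is the share of 5mC tags among all tags. HepG2, a liver line from a hepatocellular carcinoma, had 5 single cells and 2 libraries of 1000 cells. H1ES, a human embryonic stem cell line, had the same numbers, and neither line carried a treatment in the labels. No label names separate cultures, so p-values here reflect variation from library to library that could be purely technical, and the single cells were not tested.

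Long partially methylated domains are known from cultured and cancer cells. They tend to be poor in genes, to replicate late and to lie at the nuclear lamina, and embryonic stem cells are known to lack them. CpG islands, stretches dense in CpG at the start of many genes, are usually unmethylated in healthy cells and often gain methylation in cancer.

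The promoters below stand for both directions seen inside the blocks. The starts of ZFP42, a zinc finger gene used as a marker of pluripotent cells, and GABRG3, a GABA-A receptor subunit, had fewer unmethylated tags in HepG2 than in H1ES. The start of LRRC55, an auxiliary subunit of potassium channels, had more. Each sequence runs from 250 bases before to 50 bases after the start in RefSeq (GRCh38.p14), 5′ to 3′ on the strand of the gene, with the assayed CCGG sites in capitals. ZFP42 lies at chr4:187995521-187995820 on the plus strand, GABRG3 at chr15:26970931-26971230 on the plus strand and LRRC55 at chr11:57181703-57182002 on the plus strand.
ZFP42: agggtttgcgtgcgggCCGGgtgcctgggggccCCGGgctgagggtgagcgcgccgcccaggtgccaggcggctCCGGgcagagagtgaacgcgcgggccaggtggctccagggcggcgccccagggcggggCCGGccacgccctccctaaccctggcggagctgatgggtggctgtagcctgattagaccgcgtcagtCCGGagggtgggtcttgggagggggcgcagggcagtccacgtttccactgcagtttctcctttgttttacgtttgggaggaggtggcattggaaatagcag
GABRG3: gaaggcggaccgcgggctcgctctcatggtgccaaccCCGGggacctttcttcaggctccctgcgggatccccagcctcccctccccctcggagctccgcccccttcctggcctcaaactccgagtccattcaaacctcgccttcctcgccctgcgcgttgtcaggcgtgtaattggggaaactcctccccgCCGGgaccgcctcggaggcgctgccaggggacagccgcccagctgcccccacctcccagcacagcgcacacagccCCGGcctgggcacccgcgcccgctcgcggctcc
LRRC55: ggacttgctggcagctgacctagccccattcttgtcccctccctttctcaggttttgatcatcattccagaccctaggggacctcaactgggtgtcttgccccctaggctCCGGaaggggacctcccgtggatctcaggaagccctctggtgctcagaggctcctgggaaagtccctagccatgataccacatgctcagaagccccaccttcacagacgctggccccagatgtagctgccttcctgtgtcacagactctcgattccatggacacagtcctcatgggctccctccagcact
The ZFP42 stretch holds 5 CCGG sites and 24 CpG, the GABRG3 stretch 3 and 27, and the LRRC55 stretch 1 and 4. The tags of these starts were counted in wider windows of 1000 bp on each side. Those windows hold 18 CCGG sites at ZFP42, 19 at GABRG3 and 9 at LRRC55. Values of the printed sites alone are not given here. Of the 726 such promoters that lie in blocks, 53.3% hold a CCGG, against 76.1% of all 15100 autosomal promoters in the table, in a search for the letters CCGG, which read the same on both strands. The median GC content was 53.5% in blocks and 63% over all promoters, and the median ratio of observed to expected CpG was 0.489 in blocks and 0.767 over all.

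Libraries of 1000 cells held 4911898 to 6644517 tags. HepG2 cells 3 and 5 stood apart with 2455908 and 2434482 tags and a tag at 46.0% and 45.4% of all sites, whereas HepG2 cells 1, 2 and 4 held 526207 to 611318 tags at 17.9% to 20.1% of sites. H1ES cells held 757767 to 1543724 tags. The blocks also took a different share of the tags in these cells, with 9.54%, 9.46%, 13.3%, 10.4% and 11.7% in HepG2 cells 1 to 5 and 13.2% to 13.6% in the H1ES cells. No label says why these cells were deeper, and whether they held more than 1 cell was not tested. They gave 78.4% of the block tags of the HepG2 cells, so values of summed HepG2 cells are mostly theirs. Group means of HepG2 cells are also given without them, an alternative chosen after seeing the data.

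Inside the blocks HepG2 DNA was mostly unmethylated at the CCGG sites that H1ES kept methylated. The 5mC level in blocks was 31.8%, 31.5%, 29.8%, 31.2% and 34.4% in HepG2 cells 1 to 5, a mean of 31.7% ± 1.68 (SD, n = 5), and 96.0% ± 0.296 in the H1ES cells (SD, n = 5), which ranged from 95.6% to 96.3%. The lines did not overlap. Without HepG2 cells 3 and 5 the HepG2 mean was 31.5%. In the 1000-cell libraries the level was 29.2% and 30.2% in HepG2 and 96.0% and 96.4% in H1ES. The 1000-cell values of HepG2 are those that chose the blocks.

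Outside the blocks the lines were closer. The 5mC level there was 65.9% ± 1.20 in HepG2 cells and 93.7% ± 0.297 in H1ES cells (SD, n = 5 each), and 66.3% in HepG2 without cells 3 and 5. The difference of blocks minus outside was -34.2 ± 1.11 points in HepG2 cells, with -34.3, -35.3, -34.1, -34.9 and -32.4 in cells 1 to 5, and -34.8 as the mean without cells 3 and 5. In H1ES cells the same difference was positive, 2.27 ± 0.126 points, and it lay between 2.12 and 2.43 in all 5. The H1ES bulk libraries gave 2.73 and 2.47 points. With 2 libraries the exact paired permutation test cannot go below a two-sided p of 0.5, so this difference carries no test. The shorter low runs of HepG2, 2351 runs of fewer than 10 bins, held 37.4% ± 1.52 in HepG2 cells and 94.1% ± 0.358 in H1ES cells (SD, n = 5 each), and 37.2% in HepG2 without cells 3 and 5.

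**Figure D1:**
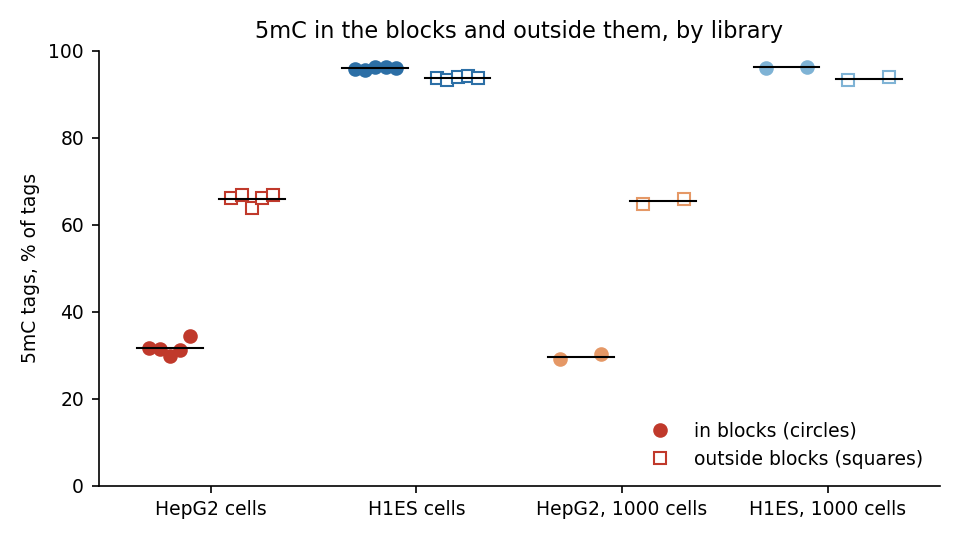
Share of 5mC among all tags (y axis, %) in blocks (filled circles) and outside them (open squares) for each library, with a black line at the mean of each group. HepG2 cells sit between 29.8% and 34.4% in blocks and between 63.9% and 66.9% outside, and H1ES cells between 95.6% and 96.3% in blocks and between 93.3% and 94.1% outside.

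The low level held block by block in single cells. In HepG2 cells 1 to 5, 369, 368, 369, 369 and 369 of the 369 blocks had a 5mC level under 50%, and 0 blocks did in each of the 5 H1ES cells. The median block held 103 to 670 tags in the HepG2 cells and 222 to 447 tags in the H1ES cells. In the deepest HepG2 cell, cell 3, the blocks ranged from 19.4% to 39.1% with a median of 29.4%. The SD over blocks in that cell was 3.29 points, above the 1.82 points that counting gives if its tags are independent. In the shallow HepG2 cell 1 the SD over blocks was 6.04 points, against 4.92 points from such counting. Tags of the same site tended to agree, so the spread from counting is larger than these figures. The excess between blocks is smaller by an amount not given here.

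The order of the blocks by 5mC level was shared within a line and not between the lines. Over the 369 blocks, Pearson's r was 0.853 between the HepG2 bulk libraries and 0.408 to 0.770 between a HepG2 cell and a HepG2 bulk library. Among the HepG2 cells it was 0.182 to 0.632. Between the H1ES bulk libraries r was 0.938, and between HepG2 and H1ES bulk libraries it lay between -0.138 and -0.0505. These values describe blocks of the same genome, which share base composition and depth, and are not tests.

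The blocks covered the autosomes unevenly. They took 34.8% of the kept length of chromosome 4, 34.0% of chromosome 8, 32.7% of chromosome 18 and 32.2% of chromosome 21, and 2.35% of chromosome 19, where 1 block lay. The median block had 14 bins, 83 blocks had 20 or more and 5 had 40 or more. Blocks were sparse in assayed sites, with a median of 36 CCGG sites per bin in blocks and 70 outside. At the limits of the rule, 136 of the 6055 block bins had their higher HepG2 bulk level between 48% and 50%, and 109 of the 702 kept bins next to a block had it between 50% and 52%. Further, 56 blocks had exactly 10 bins and 81 runs of 9 bins were left out.

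The longest block, chr4:57100001-64100000, spans 70 bins and holds ADGRL3, an adhesion receptor (latrophilin) of neurons, as its longest gene. Its 5mC level was 31.6%, 35.6%, 28.5%, 28.5% and 34.2% in HepG2 cells 1 to 5, and it lay between 96.1% and 97.7% in the H1ES cells. ADGRL3 itself, at chr4:61200326-62078335, read 36.1% over its length in the summed HepG2 cells and 94.4% in the summed H1ES cells. The locus LOC124900173 lies in the same block and read 28.6% of 56 tags in HepG2 cells and 93.1% of 58 tags in H1ES cells.

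The next block in length, chr7:144000001-148300000, has 43 bins with a cluster of OR2A olfactory receptor genes. Its level was 32.7% in the summed HepG2 cells and 97.4% in the summed H1ES cells. ARHGEF5, a guanine exchange factor, read 31.6% of 19 tags in HepG2 cells and 95.7% of 23 tags in H1ES cells. NOBOX, a homeobox gene of oocytes, read 44.0% of 25 tags in HepG2 cells and 100% of 36 tags in H1ES cells.

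The block chr11:78600001-82800000, with 42 bins, holds TENM4, a teneurin that guides neuronal connections. TENM4 read 36.8%, 27.5%, 30.5%, 27.3% and 33.9% in HepG2 cells 1 to 5 and 93.2% to 96.3% in the H1ES cells. FAM181B, in the same block, had 7 tags in the summed HepG2 cells and 3 in the summed H1ES cells, too few to compare. The block chr13:82600001-86700000, with 41 bins, holds SLITRK1 and SLITRK6, membrane proteins that shape synapses. SLITRK1 read 23.8% of 21 tags in HepG2 cells and 46.2% of 13 tags in H1ES cells, and SLITRK6 had 1 tag in each line. The block chr2:121800001-125800000, with 40 bins, holds CNTNAP5, a neurexin family gene, which read 29.5% in HepG2 cells and 97.3% in H1ES cells.

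H1ES was not equally methylated in every block. The block chr6:50100001-51100000, with TFAP2D and TFAP2B, 2 members of the AP-2 transcription factor family, read 33.3% in the summed HepG2 cells and 86.6% in the summed H1ES cells. H1ES bulk libraries gave 84.8% and 89.0% there. The block chr20:21400001-22400000, with NKX2-2 and PAX1, a homeobox and a paired-box gene of the embryo, read 32.2% in HepG2 cells and 88.0% in H1ES cells. The block chr4:80100001-81400000 holds PRDM8, FGF5, BMP3, PRKG2 and CFAP299, and read 26.9% in HepG2 cells and 88.5% in H1ES cells. The blocks with the most 5mC in H1ES bulk, chr3:95400001-96700000, chr14:84000001-85000000 and chr4:32900001-34500000, touch no protein-coding gene. They read 34.2%, 31.7% and 28.1% in the summed HepG2 cells and 97.9%, 97.9% and 97.9% in the summed H1ES cells.

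Among HepG2 cells the blocks with the most 5mC were chr8:48700001-49800000, chr2:180000001-181000000 and chr22:26600001-27600000. They read 41.7%, 39.9% and 39.7% in the summed HepG2 cells and 96.3%, 95.8% and 92.8% in the summed H1ES cells. The first holds SNAI2, a repressor of epithelial genes. The lowest were chr18:42800001-44000000 with RIT2 and SYT4, chr8:75600001-76800000 with part of ZFHX4, and chr3:17900001-19200000 with SATB1, at 23.5%, 24.7% and 24.8% in HepG2 cells. In H1ES cells these last read 96.4%, 94.4% and 97.4%. In HepG2 cell 1, with 46 to 53 tags in each, they read 13.04%, 12.2% and 26.4%. Without HepG2 cells 3 and 5, the first of these read 18.5% of 157 tags, and the 17 blocks named here changed by -5.09 to 2.50 points.

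The most deeply covered sites inside the blocks differed among themselves. Of the 267772 CCGG sites in blocks, only 3004 had at least 10 tags in each HepG2 bulk library. The classes describe these sites and not the rest. Of the 3004, 1217 (40.5%) were under 20% methylated in both libraries and 856 (28.5%) were between 20% and 80% in both. Another 305 (10.2%) were over 80% in both. The HepG2 cells, which did not define these classes, read 12.8% ± 1.86, 46.6% ± 2.81 and 94.4% ± 1.08 at them (SD, n = 5 cells). The 3 classes did not overlap in the cells, and without cells 3 and 5 they read 12.7%, 46.0% and 94.8%. The H1ES bulk libraries read 96.2% and 96.2%, 96.6% and 96.6%, and 97.2% and 97.4% at the same classes. Outside blocks, 55.1% of 38370 such sites were over 80% in both HepG2 bulk libraries.

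Inside the blocks, the 5mC level went opposite ways in the lines with the crowding of CCGG sites, a stand-in for CpG density. In blocks, HepG2 cells read 27.7% ± 1.76 at sites with 0 other CCGG within 500 bp, 35.8% ± 1.53 at 1 to 4, 47.6% ± 2.42 at 5 to 9 and 48.5% ± 2.001 at 10 or more (SD, n = 5). H1ES cells read 97.1% ± 0.315, 96.0% ± 0.258, 76.3% ± 0.895 and 46.9% ± 3.13 over the same steps. At the most crowded sites the lines overlapped, with 45.6% to 50.5% in HepG2 cells and 43.4% to 50.4% in H1ES cells. Without cells 3 and 5 the HepG2 steps read 27.2%, 35.6%, 46.9% and 48.8%. Outside blocks the most crowded sites read 37.6% ± 1.75 in HepG2 cells and 39.3% ± 0.559 in H1ES cells (SD, n = 5 each). The most crowded sites were thinly covered, with a tag at 6.58% of them in the HepG2 bulk libraries and 7.30% in the H1ES bulk libraries on average, in blocks.

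**Figure D2:**
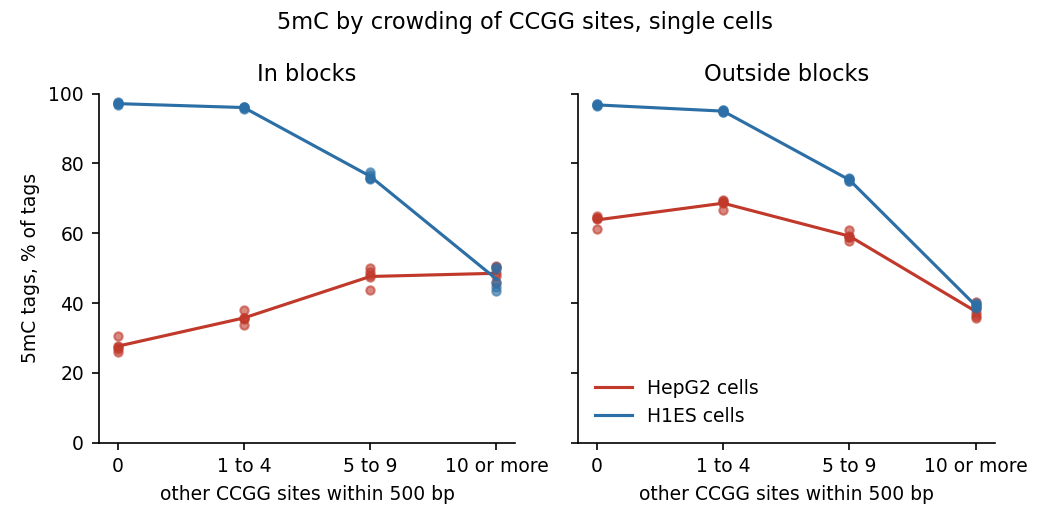
Share of 5mC among all tags (y axis, %) by the number of other CCGG sites within 500 bp (x axis), in blocks (left) and outside them (right), with a point for each single cell and a line through the means. In blocks HepG2 cells go up from 27.7% to 48.5% while H1ES cells go down from 97.1% to 46.9%, and the lines meet at the most crowded sites.

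Neighbouring sites in a HepG2 cell agreed less in blocks than outside. For pairs of tagged sites at most 200 bp apart, the share in the same state exceeded the share that the levels of their bins give by 7.5 points in blocks and 11.96 points outside in HepG2 cells. At 200 to 1000 bp the excess was 1.001 points in blocks and 6.63 points outside, and at 1000 to 5000 bp it was 0.420 points in blocks and 3.72 points outside. At 200 to 1000 bp the cells did not overlap between the classes. Up to 200 bp HepG2 cells 1 to 5 read 8.29, 9.14, 4.78, 8.47 and 6.81 points in blocks, so that cells 3 and 5 were the lowest. Without these cells the excess up to 200 bp was 8.63 points in blocks and 11.97 points outside, and at 200 to 1000 bp it was 1.39 in blocks and 6.27 outside. In H1ES cells the excess at up to 200 bp was 1.90 points in blocks and 2.83 points outside. The same site in a pair of HepG2 cells agreed more often than its bin predicts, by 10.5 to 20.02 points in blocks and 14.3 to 17.9 points outside over the 10 pairs of cells. The highest value in each class was that of cells 3 and 5. The pairs of cells 1 with 2, 1 with 4 and 2 with 4 read 11.2, 10.5 and 11.6 points in blocks. Outside, the same pairs read 14.4, 14.3 and 14.4 points. Sites with 2 tags in a HepG2 library of a single cell carried both kinds in 22.4% to 27.9% of cases in blocks and 16.2% to 19.7% outside. The highest values in both classes were those of cell 5, and in cells 1, 2 and 4 the shares were 22.7%, 23.7% and 24.7% in blocks.

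**Figure D3:**
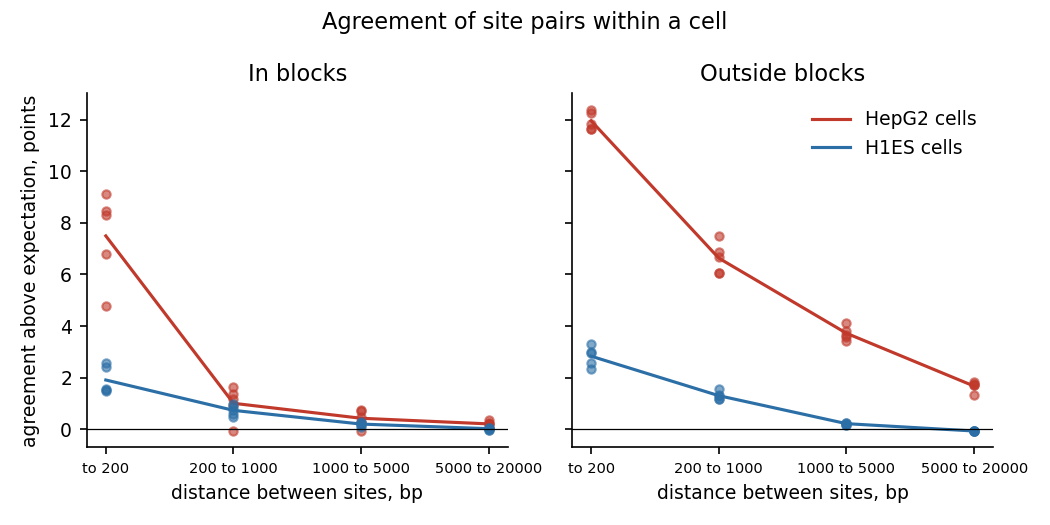
Agreement in state between sites of the same cell above the agreement that the bin levels give (y axis, percentage points) by distance between the sites (x axis, bp), in blocks (left) and outside (right), with a point for each cell and a line through the means. In HepG2 cells the excess in blocks is 1.001 points at 200 to 1000 bp, where it is 6.63 points outside.

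At the edges the HepG2 level changed between adjacent bins, and the H1ES level changed by under 1 point. Of the 738 edges, 468 were followed by a bin at or over 50% in both HepG2 bulk libraries, 234 by a bin over it in 1 of them, 35 by a bin with under 20 tags and 1 by a bin with no listed site. The bulk libraries set the place of the edge, and the single cells show the same step. The last bin inside read 35.7% ± 1.84 and the first bin outside 63.6% ± 1.35 in HepG2 cells, a step of 27.8 ± 1.04 points (SD, n = 5) that lay between 26.3 and 29.0. In H1ES cells the step was -0.557 ± 0.222 points (SD, n = 5), with 95.2% inside and 94.6% outside, and negative in 5 of 5 cells. It was -0.0995 points where the blocks were chosen without HepG2 1000-cell replicate 2. Without HepG2 cells 3 and 5 the HepG2 step was 28.2 ± 0.804 points.

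In steps of 10 kb, over the 702 edges with a kept neighbour, HepG2 cells read 42.9% in the last 10 kb inside and 51.7% in the first 10 kb outside, and 43.0% inside and 51.4% outside without cells 3 and 5. The level went on changing with distance, to 30.8% at 195 kb inside and to 71.3% at 95 kb outside. Farther out it came down to 64.3% at 195 kb outside. By the rule, the first bin outside was at or over the threshold in a HepG2 bulk library. Bins beyond it were not held to this, and some lay in a neighbouring block, as 38 kept gaps between blocks were 1 bin wide. The peak is therefore not read as a feature of the edges. The first bins outside also held more genes, with 0.245 gene ends per bin in the last bin inside, 0.528 in the first outside and 0.469 in the tenth outside. CCGG sites per bin numbered 54.3 in the last bin inside and 65.1 in the first outside. The part of site density in the step was not tested.

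**Figure D4:**
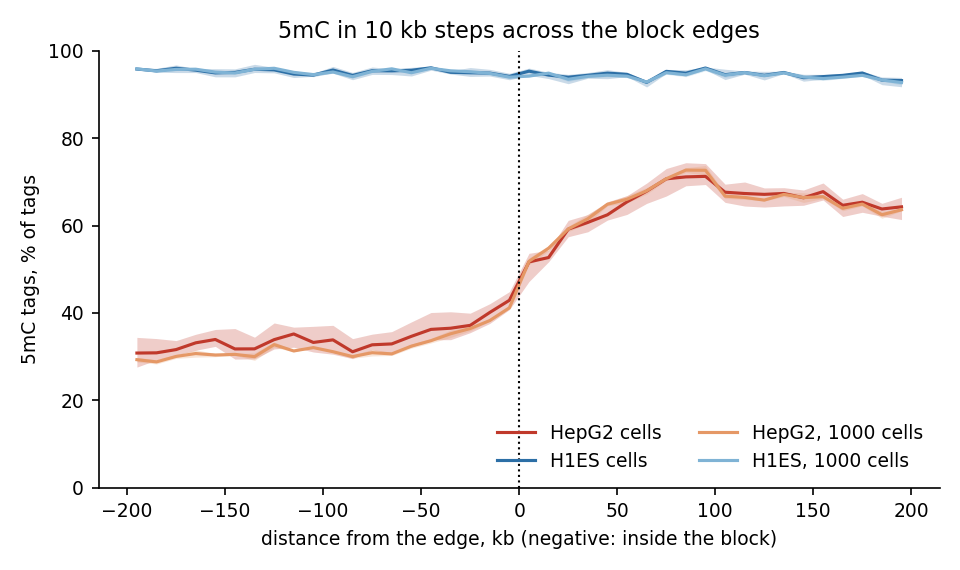
Share of 5mC among all tags (y axis, %) in 10 kb steps by distance from the block edge (x axis, kb, negative inside), with a line for the mean of each group and a band for the range over its libraries. HepG2 cells read 42.9% in the last step inside and 51.7% in the first outside, and the H1ES lines stay above them on both sides.

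Some blocks were broken by a single bin. Of 347 pairs of blocks next to each other on a chromosome, 39 were 1 bin apart, and 38 of these bins were kept. Only 9 of the 38 were at or over 50% in both HepG2 bulk libraries. In the summed HepG2 cells the 38 bins had a median of 46.6% (31.2% to 62.1%), and 24 of them lay under 50%.

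Blocks held fewer genes per Mb than the rest, for each kind counted. Of 19122 autosomal protein-coding genes, 794 (4.15%) lay wholly inside a block and 220 crossed an edge. Counted by their midpoints, 1.4996 protein-coding genes per Mb lay in blocks and 8.72 outside. Long noncoding RNA genes were less unequal, with 4.60 per Mb in blocks and 7.11 outside, as were pseudogenes with 3.26 and 5.82. The miRNA genes numbered 0.221 per Mb in blocks and 0.793 outside, and 4 of 439 tRNA genes lay inside. No protein-coding gene touched 61 of the 369 blocks, and 123 held none whole.

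Several gene families of sensory, skin and neuronal function lay in blocks at shares above that of all genes. The lists were written with earlier results of these data known, and their shares are descriptions. Of 391 olfactory receptor genes, the odorant receptors of the nose, 142 (36.3%) lay wholly inside, in 6 blocks, against 4.15% of all protein-coding genes. The blocks chr11:4200001-5600000, chr11:55100001-57300000 and chr1:247400001-248500000 alone held 37, 46 and 35 of them. Since clustered genes share a block, the gene counts are not counts of independent events. OR2L13 read 20.2% of 129 tags in the summed HepG2 cells and 94.6% of 129 tags in the summed H1ES cells, and OR51B5 read 42.4% of 118 tags in HepG2 cells and 90.7% of 97 tags in H1ES cells. The block chr1:158100001-159300000 held 27 genes, 13 of them olfactory receptors, beside CD1A to CD1E, which present lipids to T cells, and IFI16 and AIM2, sensors of DNA. Of 28 bitter taste receptor genes only TAS2R1 lay inside, at 25.7% in HepG2 cells and 97.3% in H1ES cells.

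Of 149 keratin and keratin-associated genes, which build hair and epithelial filaments, 33 (22.1%) lay wholly inside, all in the block chr21:29700001-31100000. These genes are short, and KRTAP11-1 had 7 tags in the summed HepG2 cells and 6 in the summed H1ES cells, and KRTAP24-1 had 2 in HepG2 cells and 5 in H1ES cells. No defensin gene of 45 lay inside, which allows a share of up to 7.87% (95% exact interval).

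Of 40 glutamate and GABA-A receptor genes, which mediate fast signalling between neurons, 13 (32.5%) lay wholly inside, in 10 blocks. The 12 with enough tags had a median of 27.2% in HepG2 cells and 94.6% in H1ES cells. GRID1, a delta glutamate receptor, read 28.6%, 24.5%, 23.8%, 31.3% and 25.5% in HepG2 cells 1 to 5 and 94.5% to 97.0% in the H1ES cells. GRIN2A, an NMDA receptor subunit, read 27.2%, 35.6%, 29.3%, 32.3% and 36.2% in HepG2 cells 1 to 5 and 92.1% to 98.4% in the H1ES cells. For both receptors each HepG2 cell lay below each H1ES cell. Of 91 cadherin and protocadherin genes, which hold cells together, 13 (14.3%) lay inside, among them CDH12 at 30.3% in HepG2 cells and 98.6% in H1ES cells and CDH18 at 28.8% in HepG2 cells and 97.6% in H1ES cells. Of 94 potassium channel genes 13 (13.8%) lay inside, with KCNIP1, a channel-interacting protein, at 24.2% in HepG2 cells and 93.4% in H1ES cells and KCNN2, a calcium-activated channel, at 23.7% in HepG2 cells and 89.8% in H1ES cells.

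Zinc finger genes of the ZNF type numbered 20 of 505 inside (3.96%), near the 4.15% of all genes. ZNF423 read 37.0%, 38.9%, 39.2%, 40.6% and 38.9% in HepG2 cells 1 to 5 and 88.4% to 91.0% in the H1ES cells and in the summed cells ZNF385D read 30.1% in HepG2 cells and 96.7% in H1ES cells. Of 77 ribosomal protein genes only RPL10L, a testis copy of RPL10 without introns, lay inside, and of 126 genes of the mitochondrial ribosome and proteasome only MRPS30. The MRPS30 body had 0 methylated of 4 tags in the summed HepG2 cells and 0 of 3 in the summed H1ES cells. No HOX gene of 40, histone gene of 74, DNA modification enzyme of 15 or housekeeping gene of 13 lay wholly inside. This allows shares of up to 8.81%, 4.86%, 21.8% and 24.7% (95% exact intervals). The intervals reach 7.02% for ribosomal protein genes and 4.34% for the mitochondrial ribosome and proteasome. Each of these intervals includes the 4.15% of all genes.

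Few genes of the liver lists lay in blocks, in numbers too small to set them apart from the 4.15% of all genes. Of 29 genes for hepatocyte plasma proteins and 16 for hepatocyte transcription factors none lay wholly inside, which allows up to 11.9% and 20.6% (95% exact intervals). Of 27 liver enzyme genes only TDO2, the tryptophan dioxygenase of hepatocytes, did, with 3 tags in the summed HepG2 cells and 8 in the summed H1ES cells. Of 21 pluripotency genes only ZFP42 lay inside. The germline genes ACTL8 and PIWIL1, 2 of 21, read 30.7% and 43.9% in HepG2 cells and 96.6% and 96.9% in H1ES cells. Of 24 blood genes 2 lay inside, and HBB, the beta-globin gene, had no tag.

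**Figure D5:**
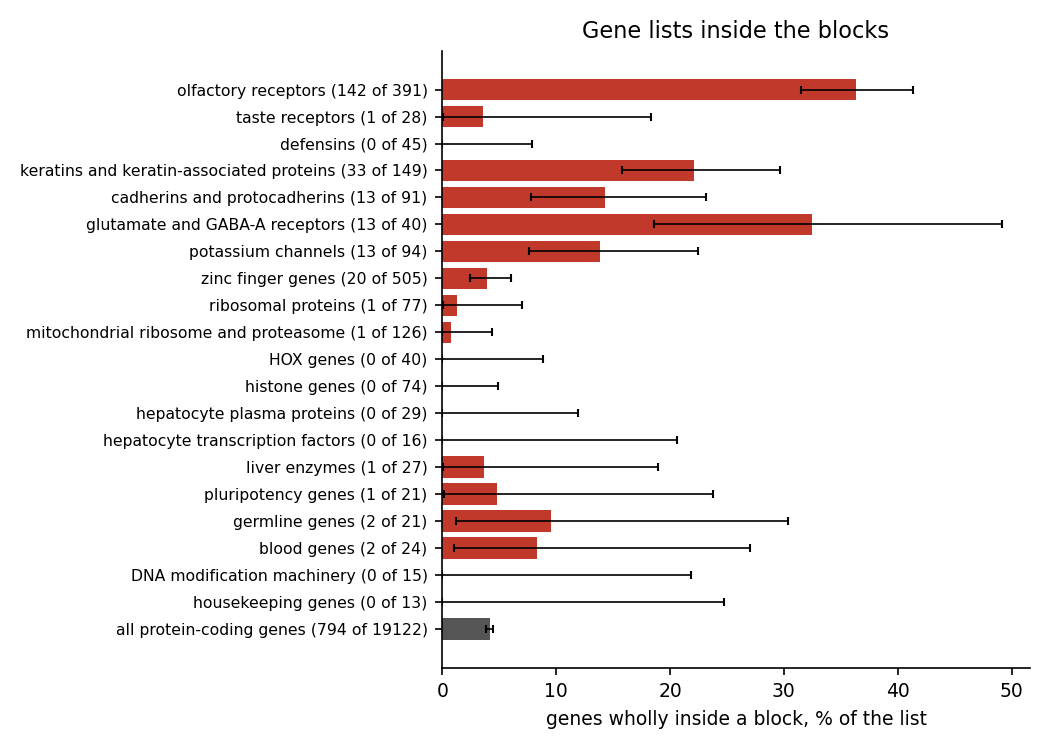
Percent of each gene list that lies wholly inside a block (x axis), with 95% exact (Clopper-Pearson) intervals as lines and the counts beside the names, and all protein-coding genes in grey at the bottom. Olfactory receptors reach 36.3% and glutamate and GABA-A receptors 32.5%, and all protein-coding genes lie at 4.15%.

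Over their length, genes inside blocks followed the block in most cases and departed from it in some. The median gene with enough tags read 31.7% in the summed HepG2 cells and 94.7% in the summed H1ES cells, and genes clear of blocks read 81.8% in HepG2 cells and 94.4% in H1ES cells. With cells 3 and 5 left out of HepG2, the median was 29.6% over 288 genes inside and 84.8% over 10236 genes clear of blocks. Of the 441 genes inside with at least 20 tags in both summed sets, 46 (10.4%) read 50% or more in HepG2. Their median length was 20254.5 bp, and that of the other genes was 144289 bp. The share at 50% or more among genes clear of blocks is not given here. The following were chosen after their values were seen. MTHFSD read 93.1% of 145 tags in HepG2 cells and 92.6% of 108 tags in H1ES cells, and MTRF1L 88.4% in HepG2 cells and 88.5% in H1ES cells. NMI, an interferon-induced gene, read 78.9% in HepG2 cells and 92.7% in H1ES cells.

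In 22 of the 441 genes (4.99%) the level over the gene was higher in HepG2 cells, and 16 of these were also higher in HepG2 bulk. Of the 17 genes under 50% in H1ES cells, 15 were among them. Neither count is given here for genes clear of blocks, so neither is read as particular to the blocks. The following were again named after their values were seen. IRX1, a homeobox gene, read 78.1% of 32 tags in HepG2 cells and 4.76% of 42 tags in H1ES cells. TFAP2A, an AP-2 factor of neural crest and skin, read 42.0% of 143 tags in HepG2 cells and 12.8% of 86 in H1ES cells, and NKX2-2 read 47.6% of 103 in HepG2 cells and 21.4% of 56 in H1ES cells. FOXF1, a forkhead gene of the gut mesoderm, read 42.6% of 47 tags in HepG2 cells and 16% of 25 in H1ES cells. HepG2 bulk libraries read 85.3% and 79.3% at IRX1, and H1ES bulk libraries 7.89% and 26.9%. TFAP2B did not keep this direction, with 39.3% in HepG2 cells and 19.7% in H1ES cells but 23.2% and 38.5% in HepG2 bulk and 32.9% and 38.5% in H1ES bulk.

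Of the 6055 block bins, 6054 had a lower 5mC share in HepG2 bulk by edgeR's quasi-likelihood test with Benjamini-Hochberg adjustment at 0.05, where 90.7% of all 26772 bins did. Nothing is read from this count, because the HepG2 side of it chose the bins. The remaining bin was called higher, as 0.885% of all bins were, and that call was lost with DESeq2, with limma, with the replicate number as a block and without either HepG2 library or H1ES replicate 1.

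Where a gene crossed 1 edge, its part inside the block was the less methylated in HepG2 in most cases. The rule placed each edge by the HepG2 bulk level, so a lower part inside goes in the direction it set. The HepG2 counts and contrasts here are therefore descriptions. Of 168 such genes with a known start, 98 began inside and 70 outside. In the 118 with enough tags on both sides, 95 were lower inside in the summed HepG2 cells, with medians of 33.7% inside and 48.1% outside, and medians in H1ES cells were 96.1% inside and 97.0% outside. In HepG2 cells 1, 2 and 4 summed, 53 of 59 genes with enough tags were lower inside. The members with the widest contrast, named after their values were seen among 55 with at least 100 HepG2 tags on each side, were SYNE1, NBAS and CNTNAP2. SYNE1, a nuclear envelope protein, read 25.2% inside and 87.0% outside in HepG2 cells and 98.8% inside and 92.1% outside in H1ES cells. NBAS, a gene of vesicle transport, read 32.6% inside and 87.8% outside in HepG2 cells and 95.3% inside and 98.9% outside in H1ES cells. CNTNAP2, a neurexin family gene, read 33.5% inside and 81.4% outside in HepG2 cells and 97.6% inside and 97.2% outside in H1ES cells.

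Gene ends, windows of 1000 bp on each side of the transcription start or, where RefSeq gave no promoter, of the end with more CCGG sites, differed less between blocks and outside than gene bodies did. Over the 888 gene ends in blocks the unmethylated share was 63.4% ± 2.99 in HepG2 cells and 51.2% ± 2.65 in H1ES cells (SD, n = 5 each). The HepG2 cells gave 60.5%, 61.0%, 67.8%, 64.6% and 63.3% and the H1ES cells 48.1% to 54.5%, without overlap. The HepG2 mean without cells 3 and 5 was 62.0% in blocks. Outside it was 66.2% ± 1.41 in HepG2 cells and 51.7% ± 0.991 in H1ES cells. Only 12 gene ends in blocks had 20 tags in each bulk library, a group that holds the better covered ends and not all 888. Their HepG2 bulk tags are a small part of those that chose the blocks, so the calls among them are descriptions. By edgeR's quasi-likelihood test on unmethylated tags, 5 of the 12 rose in HepG2, where 42.8% of all 689 ends tested did, and 1 fell, where 6.53% of all did. At a minimum of 10 tags 116 block ends were tested, of which 36 rose (31.0%) and 23 fell (19.8%), where 31.3% of 4754 ends rose and 5.57% fell. With odds relative to each library 4 of the 12 fell (33.3%), where 14.1% of the 689 did.

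The ends that rose include those of CBLN4, APLNR, FOXI1 and ZC3H12A. A rise goes in the direction for which the rule chose the bins, from the same HepG2 bulk libraries. The adjusted p-values here are therefore descriptions. CBLN4, a secreted synapse organiser, read 71.4% and 60% in HepG2 and 0% and 0% in H1ES (edgeR, adjusted p = 1.2e-10). APLNR, the apelin receptor of vessels, read 20.8% and 50% in HepG2 and 0% and 0% in H1ES (adjusted p = 7.58e-06). FOXI1, a forkhead factor of the inner ear, read 50% and 50% in HepG2 and 4.88% and 0% in H1ES (adjusted p = 5.28e-09). ZC3H12A, an RNase that degrades cytokine transcripts, read 100% and 95.8% in HepG2 and 75.0% and 61.9% in H1ES (log2 odds ratio 4.05 ± 1.04 SE, adjusted p = 4e-04). The end of CDHR1, a cadherin of photoreceptors, fell, with 47.6% and 36.4% in HepG2 and 88.2% and 78.6% in H1ES (log2 odds ratio -2.81 ± 0.76 SE, adjusted p = 6.89e-04). In these 5 ends the libraries of the lines did not overlap. The calls of ZC3H12A and APLNR were lost without H1ES replicate 2.

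In the single cells 23 gene ends in blocks had at least 20 tags in both summed sets, and 11 of these were less unmethylated in HepG2. The same count for gene ends outside blocks is not given here, so nothing particular to the blocks is read from it. The window around the ZFP42 start, wider than the stretch printed above, was unmethylated in 5 of 28 tags (17.9%) in HepG2 cells. In H1ES cells it was unmethylated in 12 of 20 (60%). Bulk libraries gave 5.88% and 26.7% in HepG2 and 88.9% and 77.1% in H1ES. GABRG3, a GABA-A receptor subunit, read 21.7% in HepG2 cells and 53.8% in H1ES cells, and bulk gave 13.6% and 13.3% in HepG2 and 54.5% and 70.6% in H1ES. The single-cell intervals of both genes overlap between the lines (ZFP42 6.06% to 36.9% in HepG2 and 36.1% to 80.9% in H1ES), and their bulk libraries do not. The TFAP2A start read 82.1% of 28 tags in HepG2 cells and 90.9% of 22 tags in H1ES cells, and the intervals overlap (63.1% to 93.9% and 70.8% to 98.9%). TUSC1 read 4.55% in HepG2 cells and 20% in H1ES cells, TMEM132E 74.1% in HepG2 cells and 87.5% in H1ES cells, and GRID1 66.7% in HepG2 cells and 79.2% in H1ES cells, with overlapping intervals in each. Intervals are exact (Clopper-Pearson, 95%) and cover counting error only.

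Among the ends with the widest rise were those of LRRC55, C16orf82, APLNR and TUBA3C. For APLNR and GRID1 the end is the one with more CCGG sites, which need not be the start. The LRRC55 start read 24 of 30 (80%) in HepG2 cells and 2 of 35 (5.71%) in H1ES cells, and bulk gave 90.9% and 88.9% in HepG2 and 0% and 0% in H1ES. C16orf82 read 72.7% in HepG2 cells and 0 of 23 tags in H1ES cells. APLNR read 48% in HepG2 cells and 0 of 21 tags in H1ES cells, and TUBA3C, an alpha-tubulin, 40.9% in HepG2 cells and 4.55% in H1ES cells. In each of these 4 the single-cell intervals of the lines were apart, except for TUBA3C, whose interval began at 20.7% in HepG2 cells and ended at 22.8% in H1ES cells. HepG2 cells 3 and 5 gave most of the HepG2 tags at these ends. The other 3 cells gave 66.7% of 6 tags at LRRC55, 40% of 10 at C16orf82, 50% of 8 at APLNR and 0 of 2 at TUBA3C.

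The share of 5hmC among modified tags was not used to choose the blocks. It was low in both lines and lower in HepG2. In blocks it was 0.581%, 0.539%, 0.413%, 0.572% and 0.395% in HepG2 cells 1 to 5 and 1.12% to 1.39% in the H1ES cells, without overlap. Bulk libraries gave 0.309% and 0.377% in HepG2 and 1.58% and 1.37% in H1ES. The means of the bulk libraries in H1ES were 4.30-fold those in HepG2 in blocks and 4.20-fold outside, and the means of the single cells 2.60-fold in blocks and 3.02-fold outside. In H1ES it was lower in blocks than outside in 7 of 7 libraries, with 1.48% in blocks and 1.72% outside as means of the bulk libraries. In HepG2 cells the means were 0.50% ± 0.0894 in blocks and 0.509% ± 0.0416 outside (SD, n = 5 each), and 2 of 5 cells were higher in blocks. Without HepG2 cells 3 and 5 the means were 0.564% in blocks and 0.536% outside. In HepG2 bulk both libraries were lower in blocks, with means of 0.343% in blocks and 0.410% outside.

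Segment by segment, the blocks were tested together with the other kept bins, cut into stretches of up to 10. By edgeR's quasi-likelihood test with Benjamini-Hochberg adjustment over 2692 segments, 228 of the 369 blocks fell in HepG2 and 0 rose, where 76.6% of all segments fell and 0% rose. An unadjusted p under 0.05, in either direction, was reached by 2121 segments. DESeq2 called 33.1% of blocks lower (122), where it called 57.1% of all segments lower. Limma called 56.4% of blocks lower (208), where it called 71.4% of all segments lower and 10 segments higher. Both called 0 blocks higher. The blocks' share was 61.8%, and a median block held 787 modified tags in HepG2 bulk and 3153 in H1ES bulk. The median log2 odds ratio was -1.95 over the blocks and -2.05 over all segments. The share was lower in both HepG2 libraries than in both H1ES libraries in 340 of the 369 blocks. The same count over all segments is not given here, so nothing particular to the blocks is read from it. With odds taken relative to those of each library over all segments, 0 blocks were called and the median over the blocks was 0.05.

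The blocks with the widest fall had no 5hmC tag in HepG2 bulk. In chr10:82400001-84300000, with CDHR1, RGR and GHITM, HepG2 had 0 of 1171 modified tags, which allows up to 0.256%. The H1ES share, 98 of 4847 (2.02%), was 7.89-fold that limit, and the block was called (edgeR, adjusted p = 5.36e-09). In chr18:3800001-5300000, with AKAIN1 and ZBTB14, HepG2 had 0 of 902 and H1ES 66 of 3767 (1.75%). The H1ES share was 5.27-fold the HepG2 limit, and the block was called (edgeR, adjusted p = 3.01e-06). In chr9:84200001-85500000, with NTRK2, a neurotrophin receptor, HepG2 had 0 of 1049 and H1ES 52 of 3976 (1.31%). The H1ES share was 4.57-fold the HepG2 limit, and the block was called (edgeR, adjusted p = 1.3e-05). The HepG2 limit is 3 counts over the group. The folds leave out the counting error of H1ES, and the blocks were picked for the widest fall. In all, 36 blocks had no 5hmC tag in HepG2 bulk. That count is not given here for the other segments, and nothing particular to the blocks is read from it. The 3 least lowered blocks were not called. In chr10:107500001-108500000 HepG2 had 3 of 277 modified tags (1.08%) and H1ES 17 of 1569 (1.08%). In chr6:90600001-92300000 HepG2 had 6 of 468 modified tags (1.28%) and H1ES 30 of 2698 (1.11%), and in chr7:63000001-64500000 HepG2 had 6 of 1275 (0.471%) and H1ES 16 of 4536 (0.353%).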

How the data were processed

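The study tagged CCGG sites with adapters ligated in turn. Per the labels' protocols, HpaII cut unmethylated sites first, a second digest with MspI and NlaIII followed, and glucosylation separated 5hmC from 5mC before the last MspI digest. The files deposited by the authors give for each site a count of tags and the fraction of each kind of tag, and list 2317745 sites per human library. The submitters' processing notes name UMI-tools 0.5.4, cutadapt 1.5, Bowtie2 2.3.4.1 and hg38. How tags were counted is not given in the sources used here. The columns carry no header. The kind enriched at crowded sites was taken as unmethylated and the more frequent of the other kinds as 5mC, and every 5hmC value rests on this. Whole tags were recovered as fraction times count, within 0.00141 of a whole number.

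Tags were summed over sites, so deeply covered sites weigh more. Shares of single libraries have exact Clopper-Pearson intervals at 95%, which cover counting error only. HepG2 and H1ES 1000-cell libraries (2 each) were compared by edgeR 4.0.16 (quasi-likelihood, R 4.3.3) on pairs of tag counts with the library as a term, with Benjamini-Hochberg adjustment at 0.05 over all features with at least 20 tags in each library. DESeq2 1.42.0 and limma 3.58.1 (logit shares, pseudocount 0.5) were alternatives. The fits were tested on simulated data. Other steps used Python 3.11.15, numpy 2.4.6, scipy 1.17.1, pandas 2.3.3 and matplotlib 3.10.9. Genes and promoters came from RefSeq (GRCh38.p14). A promoter was found for 15100 of 19122 genes. For 3642 others the end with more CCGG sites was taken, and 380 had no end taken. Depth limits the single cells most. Mouse samples were not used here.

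The blocks, gene lists and tests were chosen with earlier results of these data known. Named blocks were the 5 longest, and the 3 highest and 3 lowest in H1ES bulk and in the summed HepG2 cells. Named genes were the 3 longest in each of those 5 blocks, the 6 gene ends with the widest rise and the 6 with the widest fall in single cells, and the 2 members of each list with the most bulk tags. Named 5hmC blocks were the 3 with the widest called fall. The text says so where a gene falls outside this rule. Some genes that the rule names are not reported here.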

Additional observations from a re-analysis of the deposited data

Results flagged for a closer look

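Among 30 groups of 5 cells examined, 3 held a cell far from the others by Dixon's criterion, which chance meets in about 1 group in 20. Outside blocks, HepG2 cell 3 had a 5mC level of 63.9%, and the other HepG2 cells lay between 66.0% and 66.9%. The same cell had 35.8% unmethylated tags outside blocks, against 32.8% to 33.6% in the other HepG2 cells. H1ES cell 1 had 1.29% of 5hmC among modified tags outside blocks, against 1.56% to 1.65% in the other H1ES cells.

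The lines moved in opposite directions in every cell for a pair of measures, and neither difference between the lines was tested. The 5mC level in blocks minus that outside averaged -34.2 points in HepG2 cells and 2.27 points in H1ES cells. The step at the edges, first bin outside minus last bin inside, averaged 27.8 points in HepG2 cells and -0.557 points in H1ES cells.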

How the results depend on the processing

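Of the summary values recomputed under alternatives, 127 stayed within the spread or within 1.5 times the count reported, and 61 moved. No summary value changed direction. With runs of 5 or more bins there were 901 blocks of 9562 bins, with blocks minus outside at -36.2 points in HepG2 cells, 1.97 in H1ES cells and 2.31 in H1ES bulk, -0.177 for 5hmC in H1ES bulk, 95.6% 5mC in H1ES cells, and 8.40% of protein-coding and 58.8% of olfactory receptor genes inside. With runs of 20 or more bins there were 83 blocks of 2205 bins, with -32.1 points in HepG2 cells, 2.44 in H1ES cells, -0.282 for 5hmC, 96.4% 5mC in H1ES cells, steps of 26.5 points in HepG2 cells and -1.39 in H1ES cells, and 1.27% of protein-coding and 14.1% of olfactory receptor genes. With a threshold of 40% there were 144 blocks of 1938 bins, with 29.1% 5mC in HepG2 cells, 2.11 points in H1ES cells, 2.40 in H1ES bulk, -0.209 for 5hmC, steps of 22.3 points in HepG2 cells and -0.0719 in H1ES cells, and 1.02% and 9.21% of those genes. Bins shifted by 50 kb gave 2.12 points in H1ES cells, -0.213 for 5hmC and 27.4% of olfactory receptor genes. Without crowded sites the H1ES differences were 1.74 points in cells and 2.07 in bulk, and the H1ES step -0.266. Means over sites gave 2.49 points in H1ES cells and 2.999 in H1ES bulk. Leaving out chromosomes gave -0.260 to -0.220 for 5hmC. Choosing blocks from 1 HepG2 library gave 4.77% to 5.46% of genes inside and H1ES steps of -0.475 to -0.0995 points.

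In the tests, odds relative to each library left 2 segments and 0 blocks called for 5hmC, gave 42 block bins higher in HepG2 for 5mC and 4 falling gene ends. DESeq2 called 122 blocks for 5hmC. DESeq2, limma and the replicate block each called 0 block bins higher, and leaving out libraries gave 0 to 1. A minimum of 10 tags gave 1753 of 4754 gene ends called (31.3% rising, 5.57% falling), and of 116 in blocks 36 rose and 23 fell (19.8%). A minimum of 50 tags left 1 called end, with 0 rising and 0 falling in blocks. Leaving out libraries gave 158 to 199 blocks falling for 5hmC, and 5 to 7 rising and 1 to 2 falling gene ends. With the replicate number as a block, 178 blocks fell for 5hmC, with 1858 segments called in all, and 331 gene ends were called, 5 rising and 1 falling in blocks. For 5mC that fit called 221 bins higher and 24261 lower, with 6054 of those lower in blocks. Replicate numbers did not pair the libraries (correlations of deviations -0.00314, 0.00842 and 0.0399). Without HepG2 cells 3 and 5, an alternative chosen after seeing the data, the HepG2 minus H1ES difference turned to 20.8 points at the GRID1 end (5 HepG2 tags) and to -4.55 points at TUBA3C (2 tags). The causes were not tested.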
